A study of Mus musculus with 4 samples.

Results

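Among sorted thymic invariant natural killer T (iNKT) cells, 2410 cells shared detection of a small group of genes linked to transforming growth factor beta (TGF-beta), among them Pmepa1 and Cdh1. They were chosen by their own transcripts. A barcode had to hold at least 1000 unique molecular identifiers (UMIs, each standing for 1 captured RNA molecule), at least 500 genes and under 10% mitochondrial UMIs. It had to hold no UMI of the B cell gene Cd79a or of the recombinase gene Rag1, at most 2 of the 4 mitotic genes Mki67, Top2a, Birc5 and Ube2c, at most 2 of the 5 Ly49 receptor genes Klra1, Klra5, Klra6, Klra7 and Klra9, and at least 1 UMI of the granule gene Nkg7. These conditions left 22002 cells, called gate cells here. A gate cell with at least 1 UMI of at least 3 of the 5 genes Pmepa1, Cdh1, Skil, Spsb1 and St8sia1 counted as a member, called a Pmepa1/Cdh1 cell below. The 2410 members made up 10.95% of the gate cells and 7.913% of the 30455 deposited barcodes. The 5 genes were chosen for marking these cells in the same libraries, so their levels in the members describe the choice and are not a result.

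The libraries came from iNKT cells of the thymus of mice between 6 and 8 weeks of age. Magnetic enrichment was followed by sorting for CD3 and for binding of the CD1d tetramer, per the labels. WT 1 and WT 2 are labelled wild type, and ACC1 KO 1 and ACC1 KO 2 are labelled knockouts of ACC1, the cytosolic acetyl-CoA carboxylase encoded by Acaca. ACC1 makes malonyl-CoA, the building unit of new fatty acids, and the series title names its part in the survival of thymic iNKT cells. The deleted piece of Acaca, any Cre driver, the strain and the number of mice behind each library are not stated. Values of the 4 libraries are given throughout in the order WT 1, WT 2, then ACC1 KO 1, ACC1 KO 2. The labels do not say that libraries came from separate animals. Sex-linked transcripts, given below, differ between the 2 libraries of each genotype, which therefore did not share an animal. The number of animals stays unknown, so every p-value between genotypes measures the spread between these libraries only.

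TGF-beta binds a pair of serine/threonine kinase receptors, which phosphorylate Smad2 and Smad3. These Smads then enter the nucleus with Smad4 and act on target genes, several of which encode inhibitors of the pathway itself. In T cells, TGF-beta is known for inducing the integrin CD103 (Itgae), which binds E-cadherin on epithelium, and for its part in iNKT cell development and in tissue residency. Thymic iNKT cells are grouped into iNKT1, iNKT2 and iNKT17 cells by their transcription factors, among them T-bet in iNKT1 and high PLZF in iNKT2 cells.

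The libraries held 29.1 to 74.2 M UMIs, and the pair numbered 1 was the shallower in both genotypes. Members had medians of 5095.5, 6995.5, 5078 and 7937 UMIs per cell. The pairs also differed in sex-linked transcripts over the gate cells. Number 1 libraries held Ddx3y, from the Y chromosome, at 87.6 and 80.1 counts per M UMIs (CPM), and number 2 libraries held Xist, from the inactive X chromosome, at 556 and 559 CPM. Xist was at 0.433 and 0.304 CPM in number 1 libraries, and Ddx3y at 0.062 and 0.061 CPM in number 2 libraries. Number 1 libraries thus read as male and number 2 libraries as female. Within a number, each genotype has 1 library, so values within a number stand beside the pooled ones below. Of the 2410 members, 11.95% were marked by a score against simulated doublets, 8.71 to 12.9% per library, against 3.50 to 6.40% of the gate cells. Pairs of libraries shared 10 to 27 barcode sequences.

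The label of iNKT1 cells was checked against marker lists. Members held RNA of the CD3 chains and the alpha chain constant gene (Cd3e in 94.5 to 98.4% of members, Trac in 86.2 to 95.8%). Tbx21, which encodes T-bet, the defining factor of iNKT1 cells, was detected in 49.3, 61.0, 35.4 and 66.5% of members. In other gate cells matched one to one for total UMIs, the shares were 44.8, 60.5, 42.5 and 61.7%, so the ranges overlapped. The summed level of 14 iNKT1 markers was 6196, 6093, 6868 and 5858 CPM in members and 6260, 6231, 6488 and 5499 CPM in the matched cells. Members were thus lower than matched cells in both WT libraries and higher in both ACC1 KO libraries. Over all gate cells the sum was 6675, 6537, 7031 and 5995 CPM, so it was lower in members than over the gate in all 4 libraries. The 11 iNKT2 markers summed to 750, 577, 867 and 584 CPM in members and to 702, 513, 583 and 488 CPM over the gate, where members were the higher in all 4. Against the matched cells, at 792, 609, 836 and 624 CPM, they were higher in ACC1 KO 1 only. The 11 iNKT17 markers summed to 65.9, 30.2, 29.7 and 12.4 CPM in members and to 35.9, 26.9, 24.2 and 11.7 CPM over the gate. Members were again the higher in all 4. Against the matched cells, at 57.5, 42.5, 47.7 and 10.3 CPM, they were higher in WT 1 and ACC1 KO 2 only. Of 7 B cell markers 2 were at 0 in all members, and the sum of the list was 78.2 to 104 CPM. The 6 myeloid markers summed to 66.1 to 90.5 CPM, nearly all of it from Cst3, and Lyz2 was at most at 0.208 CPM. The gate itself requires Nkg7, and neither T-bet RNA nor these sums set the members apart as iNKT1 cells within it, so they are named here by their leading genes. No cell was treated with TGF-beta in this series, and neither the protein nor phosphorylated Smads were measured.

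Pmepa1 encodes a membrane protein that holds receptor-regulated Smads away from the TGF-beta receptor, and Skil encodes SnoN, a nuclear repressor of Smads. SPSB1 is the substrate-binding part of a ubiquitin ligase that targets the type II TGF-beta receptor. Cdh1 encodes E-cadherin, the adhesion molecule of epithelia and the ligand of CD103. St8sia1 encodes GD3 synthase, which adds a second sialic acid to the ganglioside GM3. On GRCm38, Pmepa1 lies at chr2:173224458-173276533 on the minus strand, Cdh1 at chr8:106603351-106670246 on the plus strand, Skil at chr3:31095058-31122577 on the plus strand, Spsb1 at chr4:149896283-149955043 on the minus strand and St8sia1 at chr6:142821545-142964452 on the minus strand.

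The RefSeq promoter table for GRCm38.p6 held Spsb1 and St8sia1 of the 5 genes. Their promoters, from 250 bases before the start to 50 after it, are printed because these genes were detected together with the pathway's own inhibitors. The core Smad-binding sequence CAGAC was searched on both strands, and its matches (GTCTG on the strand shown) are in capitals. Both sequences are on the minus strand, at chr4:149954957-149955256 for Spsb1 and chr6:142964403-142964702 for St8sia1.
Spsb1: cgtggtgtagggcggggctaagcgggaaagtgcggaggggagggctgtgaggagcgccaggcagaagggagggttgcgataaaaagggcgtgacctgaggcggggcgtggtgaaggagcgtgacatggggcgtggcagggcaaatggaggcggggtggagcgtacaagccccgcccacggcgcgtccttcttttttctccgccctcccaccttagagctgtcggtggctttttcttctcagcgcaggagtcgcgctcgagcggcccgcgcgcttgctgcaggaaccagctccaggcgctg
St8sia1: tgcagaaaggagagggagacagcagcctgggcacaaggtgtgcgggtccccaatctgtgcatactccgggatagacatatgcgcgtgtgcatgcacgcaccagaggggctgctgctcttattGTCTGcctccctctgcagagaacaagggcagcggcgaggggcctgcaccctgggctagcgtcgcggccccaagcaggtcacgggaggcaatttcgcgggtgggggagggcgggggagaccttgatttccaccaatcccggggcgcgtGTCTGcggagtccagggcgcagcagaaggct
The St8sia1 window held 2 matches and the Spsb1 window 0. Of all 32851 promoters of this length, 49.6% held at least 1 match and 16.2% at least 2, so either outcome is common. The palindrome GTCTAGAC was in neither window and in 0.213% of all promoters. A match is only a run of letters, and no binding was measured here.

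In the members, Pmepa1 was detected in 82.1% of cells in WT 1, 82.2% in WT 2, 86.2% in ACC1 KO 1 and 83.9% in ACC1 KO 2. Skil was detected in 73.5 to 77.3%, St8sia1 in 72.4 to 83.1% and Spsb1 in 34.4 to 41.5%. Cdh1 varied most between libraries, with 63.4, 72.9, 44.8 and 62.5%. A member therefore need not hold both genes of its name. The commonest combination was Pmepa1 with Skil and St8sia1 (380 cells, 15.8%), followed by Pmepa1 with Cdh1 and St8sia1 (332 cells, 13.8%). All 5 genes were found together in 188 cells (7.80%), and the rarest combination was Cdh1 with Skil and Spsb1 alone (37 cells). Around the threshold, cells with exactly 2 of the genes held Pmepa1 in 53.0 to 66.7% of cases and those with exactly 3 in 74.7 to 85.2%. The corresponding values for Cdh1 were 22.8 to 47.9% and 40.1 to 64.6%. Summed over the 5 genes, such shares rise with the number of genes by construction. They therefore cannot show whether a gap separates members from their neighbours.

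Droplets can pick up free RNA, so the 5 genes were also read in barcodes of another cell type. B cell barcodes were those with at least 2 UMIs of Cd79a, with Cd79b detected and with no UMI of Cd3e. Barcodes with Cd3e were left out, so free RNA of T cells can be understated. In these barcodes (356, 12, 107 and 38 of them, median UMIs 3289 to 6879), Cdh1 was in 0.281, 0, 0 and 0%. Spsb1 was in 0.562, 8.33, 1.87 and 0%, St8sia1 in 1.69, 8.33, 1.87 and 7.89%, Pmepa1 in 9.55, 25.0, 15.9 and 18.4% and Skil in 27.2, 66.7, 29.0 and 42.1%. Skil had the highest share of the 5 genes in each library, the value of WT 2 resting on 12 barcodes. At least 3 of the 5 genes were met by 4 of 356, 0 of 12, 1 of 107 and 1 of 38 of these barcodes.

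Each of the 5 genes was also read in cells that it had not helped to choose. Gate cells with at least 2 of the other 4 genes were set against gate cells with fewer, matched for total UMIs. The 5 genes had been picked in these libraries for marking the same cells, so this restates the choice, and the values are a description with no test. Pmepa1 stood at 175, 144, 131 and 110 normalised CPM (CPM after scaling between libraries) in cells chosen by the others, and at 70.4, 54.4, 42.7 and 49.5 in the matched cells, a log2 difference of 1.34. Cdh1 stood at 89.7, 113, 32.0 and 55.9 against 39.6, 51.3, 15.8 and 23.7 normalised CPM, a log2 difference of 1.16. It was low in ACC1 KO 1 on both sides. Spsb1 had the widest gap of the 5, with 37.7, 40.4, 21.7 and 20.8 against 11.1, 8.00, 8.69 and 4.17 normalised CPM, a log2 difference of 2.10. The log2 differences of Skil and St8sia1 were 1.25 and 1.37.

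Other genes followed the number of the 5 genes in a cell. Over gate cells with 0, 1, 2, 3 and 4 or 5 of them, Itgae stood at 133, 177, 219, 255 and 374 CPM in WT 1 and at 202, 254, 317, 390 and 500 CPM in WT 2. In ACC1 KO 1 it stood at 109, 126, 155, 207 and 223 CPM, and in ACC1 KO 2 at 198, 233, 288, 391 and 455 CPM. Itgae was therefore ordered the same way in all 4 libraries. Ldlrad4, which encodes a membrane inhibitor of Smad phosphorylation related to PMEPA1, went from 102 to 380 CPM in WT 1, from 106 to 487 in WT 2 and from 102 to 435 in ACC1 KO 2. In ACC1 KO 1 it reached 238 CPM at 3 genes and 216 CPM at 4 or 5. Tbx21 was ordered the same way in ACC1 KO 2 (145, 146, 161, 165 and 192 CPM) and in no other library, at 130, 152, 136, 126 and 145 CPM in WT 1, 140, 152, 169, 151 and 174 in WT 2 and 99.1, 102, 104, 86.5 and 112 in ACC1 KO 1. Klrb1c, which encodes NK1.1, was lower in cells with 4 or 5 of the genes than in cells with none, at 251 against 353, 172 against 253, 259 against 441 and 153 against 225 CPM. The genes drawn in the plot of levels by number of genes detected were picked after their values were seen.

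**Figure D1:**
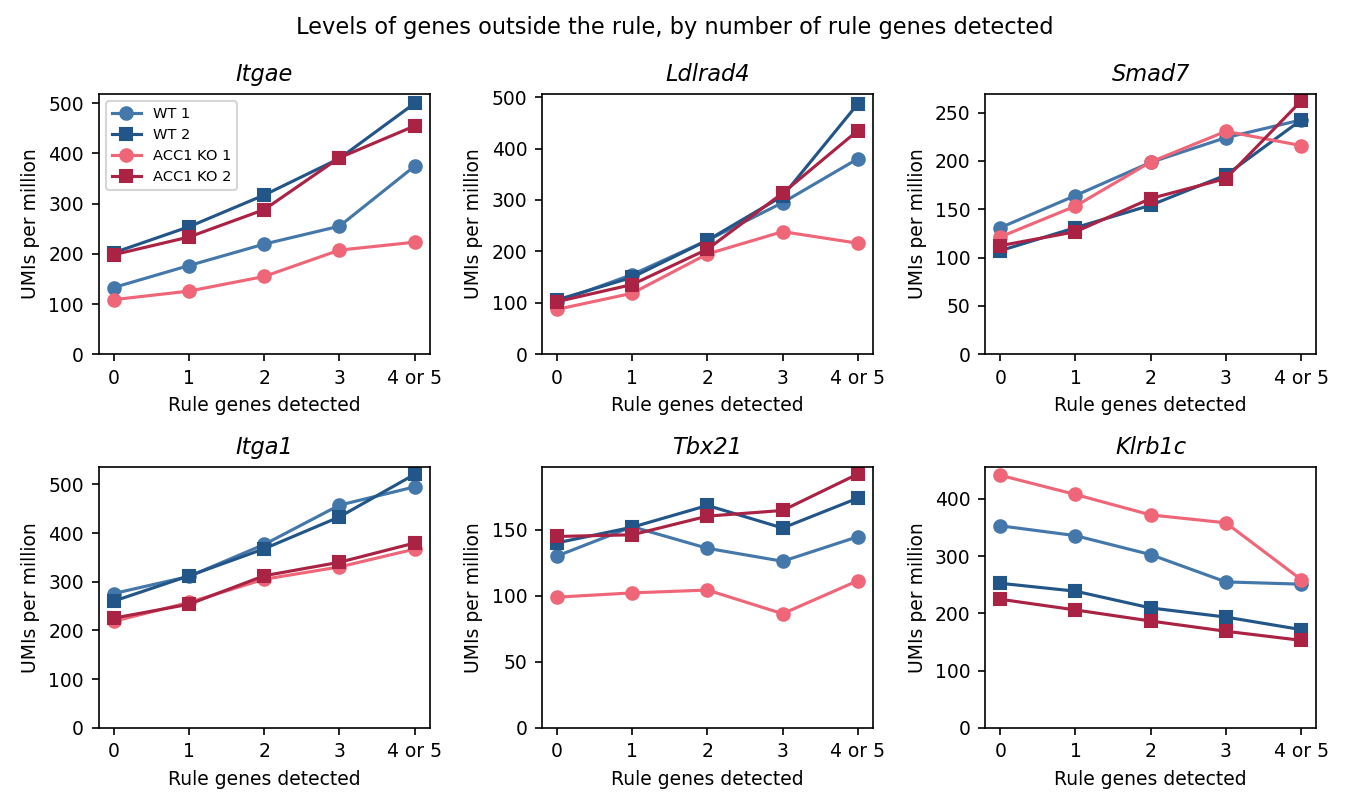
CPM of 6 genes (y axis) in gate cells holding 0, 1, 2, 3 and 4 or 5 of the 5 genes (x axis), 1 line per library. Itgae, Ldlrad4, Smad7 and Itga1 lie higher in the cells with 4 or 5 of the genes than in those with none, Tbx21 stays within 86.5 to 192 CPM over all libraries, and Klrb1c lies lower.

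To describe what goes with the 5 genes, UMIs were summed per library over the members and over as many other gate cells matched for total UMIs. The 17 genes that the rule uses were left out, and 10481 genes were tested with the library as a term. In the members 1026 genes (9.79%) were higher and 1087 (10.4%) lower at an adjusted p under 0.05, and 15.1% were higher and 15.6% lower in all 4 libraries. Without WT 2, the deepest in members, the counts were 605 and 608. Without ACC1 KO 2 they were 684 and 678. The median log2 difference over all genes was -0.00. Against these shares the counts of every gene list below can be read. The 5 genes had been picked on these cells, so the values describe the company they keep and are not independent evidence for a cell type.

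Of the 18 genes on a list of TGF-beta induced genes, 12 could be tested, and 7 were higher and 1 lower in members, with a median log2 difference of 0.27. Ldlrad4 stood at 298, 387, 228 and 370 normalised CPM in the members, against 128, 156, 106 and 140 in the matched cells. All member values lay above all matched values, and the log2 difference was 1.30 ± 0.04 (adjusted p = 8.5e-80). Itgae stood at 270, 441, 206 and 431 against 137, 254, 105 and 228 normalised CPM, a log2 difference of 0.87 ± 0.04 (adjusted p = 7.9e-54). It was higher within every library, and the groups overlapped because number 2 libraries held more Itgae in both. Smad7, the inhibitory Smad, stood at 214, 212, 222 and 218 against 133, 121, 134 and 129 (log2 difference 0.76 ± 0.05, adjusted p = 2.8e-37). Its members lay in a range of 212 to 222, clear of every matched value. Smad7 was named after its values were seen. Ski, a repressor related to SnoN, and Smurf2, a ubiquitin ligase acting with Smad7, were higher by 0.88 ± 0.05 and 0.82 ± 0.05. Klf10 and Junb were higher by 0.37 and 0.11. Id3, which also falls outside the naming rule, was lower by a log2 difference of -0.66 ± 0.11 (adjusted p = 1.7e-06), not in the same direction in every library. Smurf1, Tgif1, Rhob and Cdkn1a did not pass the test. Ldlrad4, Smad7, Ski and Smurf2 kept direction and call in every alternative run, and Itgae in all but the fit with no library term.

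**Figure D2:**
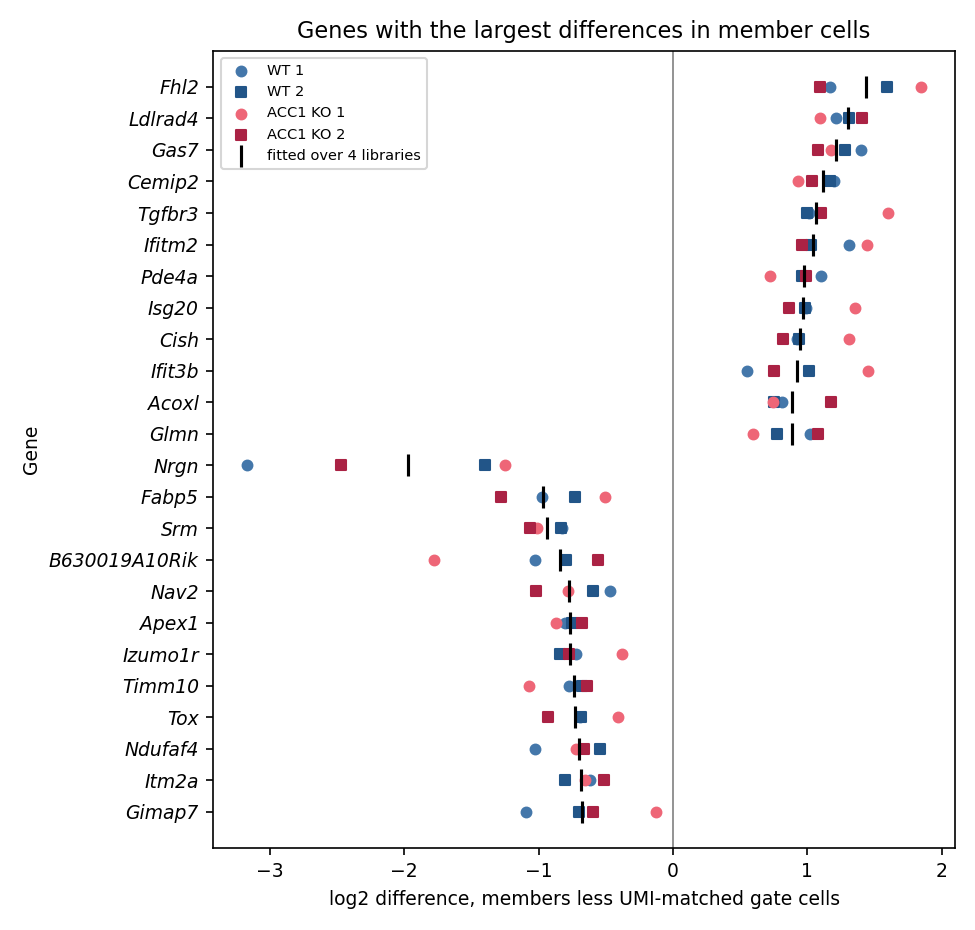
Log2 difference of normalised CPM between members and matched gate cells (x axis) for 24 named genes (y axis), 1 point per library. They are the 12 genes with the largest called differences in each direction, vertical ticks mark the fitted values, and the points of every gene from Fhl2 to Glmn lie right of 0 in all 4 libraries and those from Nrgn to Gimap7 left of it.

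Of 17 TGF-beta family receptors and Smads, 13 could be tested and 4 were higher in members, 0 lower. Tgfbr2, the type II receptor that binds TGF-beta, stood at 207, 220, 186 and 205 against 133, 166, 111 and 151 normalised CPM (log2 difference 0.48 ± 0.05, adjusted p = 2.1e-18). The groups did not overlap. Tgfbr3, the co-receptor betaglycan, stood at 61.7, 48.2, 26.5 and 39.0 against 30.3, 23.9, 8.43 and 17.9 (log2 difference 1.06 ± 0.10, adjusted p = 7.1e-21), lower in ACC1 KO 1 on both sides. Acvr2a and Bmpr2, receptors for activins and bone morphogenetic proteins, were higher by 0.41 ± 0.09 and 0.53 ± 0.14, with libraries of both directions, and without WT 2 both lost the call (0.18 and 0.33). The type I receptor Tgfbr1 differed by 0.03 ± 0.07, and none of Smad1, Smad2, Smad3, Smad4 and Smad5 passed. Of the ligand list, 3 of 12 genes could be tested. Tgfb1 stood at 75.6, 111, 72.0 and 107 against 65.5, 100, 70.8 and 102 normalised CPM and did not pass (adjusted p = 0.20). Itgav, part of the integrins that free TGF-beta from its latent form, was higher by 0.26 ± 0.09 (adjusted p = 0.028), a call lost without WT 2 (0.30) and without either of the ACC1 KO libraries (0.24 and 0.20).

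Tissue residency genes also went with the 5 genes. Of 16 tested, 11 were higher and 0 lower, with a median log2 difference of 0.31. Runx3, a transcription factor of CD103-bearing T cells, stood at 545, 490, 524 and 498 in members against 308, 260, 268 and 289 normalised CPM (log2 difference 0.86 ± 0.04, adjusted p = 3.8e-61). Rgs1, a brake on chemokine receptor signals, stood at 298, 276, 277 and 239 against 137, 156, 131 and 148 (0.85 ± 0.05, adjusted p = 3.4e-35). Neither gene's groups overlapped. Itga1, which encodes the collagen-binding integrin chain CD49a, was higher by 0.55 ± 0.04, Cxcr6 by 0.20 ± 0.04, Cd69 by 0.30 ± 0.06 and Xcl1, the chemokine of the list, by 0.27 ± 0.04. Zfp683, Prdm1, P2rx7, Cd244a and Ctla2a did not pass. Of 10 genes of egress and circulation tested, 0 were higher and 4 lower. Klf2, the factor that drives S1pr1, stood at 280, 350, 369 and 434 against 348, 405, 571 and 489 normalised CPM (log2 difference -0.28 ± 0.04, adjusted p = 5.6e-08). It was lower within each library, though the groups overlapped. S1pr4, Tcf7 and Ly6c2 were lower by smaller amounts (-0.22, -0.20 and -0.08). Of the 4 calls that of S1pr4 was lost in 5 of 14 alternatives, among them without either WT library, that of Tcf7 in 11 of 15, among them without WT 1 or ACC1 KO 1, and that of Ly6c2 in 10 of 15, among them without any one of the 4 libraries, and that of Klf2 in 2 of 15. S1pr1 did not pass.

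E-cadherin partners were few. Of 7 tested, 3 were higher: Itgae, its integrin partner Itgb7 (0.21 ± 0.05) and Ctnnb1, which encodes beta-catenin (0.19 ± 0.07, a call lost without either WT library and at -0.054 in thinned cells). Iqgap1 stood at 197 to 239 normalised CPM in members and 210 to 228 in matched cells and did not pass. Of 15 ganglioside and sialic acid enzymes tested, 4 were higher and 2 lower, where 9.79% of all genes were higher and 10.4% lower, and their median log2 difference was -0.05. St8sia6, a sialyltransferase related to GD3 synthase, was higher by 0.61 ± 0.10, though not in every library. Its log2 differences were 1.08 and 0.94 in WT 1 and WT 2, and -0.069 and 0.42 in ACC1 KO 1 and ACC1 KO 2. The interaction with genotype did not pass for St8sia6 (adjusted p = 0.60). B4galt5, the lactosylceramide synthase, was higher by 0.34 ± 0.07, and Neu1, the lysosomal sialidase, lower (log2 difference -0.35 ± 0.09).

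Interferon response genes were higher in members as well. Of 14 tested, 13 were higher and 0 lower, with a median log2 difference of 0.53. Ifit3, an interferon-induced antiviral gene, stood at 128, 97.4, 207 and 122 against 80.0, 59.2, 102 and 74.2 normalised CPM (0.74 ± 0.06, adjusted p = 4.9e-26). It was higher within every library. Ifit1 was higher by 0.70 ± 0.08 and Xaf1 by 0.57 ± 0.06. Cells with at least 3 of Ifit1, Ifit3, Isg15, Rsad2 and Usp18 made up 9.95, 15.2, 19.9 and 20.9% of members and 7.71, 8.33, 6.63 and 10.2% of matched cells. With these cells removed from both sides, in a comparison added after the data were seen, 8 of 13 interferon genes were higher and 0 lower, with a median of 0.47.

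Among the 24 T cell transcription factors 21 could be tested, and 7 were higher and 6 lower. These counts and those below stand beside 9.79% of all genes higher and 10.4% lower. Besides Runx3, Ikzf2 (Helios) was higher by 0.49 ± 0.05 and Bach2 by 0.36 ± 0.05. Tox, a factor needed for CD4 T cell development in the thymus, stood at 166, 143, 175 and 113 against 268, 231, 232 and 216 normalised CPM (log2 difference -0.73 ± 0.05, adjusted p = 1.2e-31). No member value of Tox reached a matched value, but the call was lost against all other gate cells without matching for depth (-0.23, adjusted p = 0.37) and with interferon-rich cells removed (-0.67, adjusted p = 0.13). Zbtb16, which encodes PLZF, was lower (-0.36 ± 0.05), though not in ACC1 KO 1. Tbx21, named after its values were seen, differed by 0.01 ± 0.05 and changed sign with the settings. Of 14 iNKT1 markers, 3 were higher and 3 lower, and of 6 markers of immature thymocytes tested, 0 were higher and 4 lower, Ccr9 (-0.85 ± 0.14), Itm2a (-0.69 ± 0.09), Sox4 and Lef1 among them. Of 15 NK receptors 3 were higher and 5 lower. Klra3, a Ly49 gene outside the rule, was lower (-0.51 ± 0.05), and Klra9, which the rule limits, is not counted. Against all other gate cells, without matching for depth, Zbtb16, Ccr9, Lef1 and Id3 turned to differences above 0 (0.08, 0.33, 0.18 and 0.06).

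Genes of survival and metabolism split, where 9.79% of all genes were higher and 10.4% lower. Bcl2l11, which encodes the death-promoting protein BIM, stood at 90.2, 53.6, 164 and 70.4 against 55.4, 36.5, 84.3 and 56.1 normalised CPM (0.56 ± 0.07, adjusted p = 2.5e-11). It was the 1 gene higher among 12 death-promoting genes tested, with Bax and Bbc3 lower (-0.19 ± 0.05 and -0.30 ± 0.09). Of 8 survival genes, 5 were higher and 1 lower. Bcl2a1b was higher by 0.30 ± 0.05, while Bcl2 itself stood at 506, 467, 823 and 641 against 666, 499, 1102 and 697 normalised CPM (log2 difference -0.23 ± 0.05, adjusted p = 0.0034), a call lost with doublets removed (adjusted p = 0.20). Of 23 cholesterol synthesis genes, 1 was higher (Sc5d, 0.63 ± 0.08) and 7 lower, among them Fdps (-0.60 ± 0.10) and Idi1 (-0.53 ± 0.14, a call lost without WT 2 and without ACC1 KO 2). Of 16 glycolysis genes 0 were higher and 7 lower, with Pgk1 at -0.37 ± 0.05. Myc, which drives growth, was lower (-0.64 ± 0.09), as were Srm, which encodes spermidine synthase (-0.94 ± 0.10), and Apex1, a DNA repair enzyme gene (-0.77 ± 0.11).

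Of the genes named for the largest differences, on a list or not, the higher were led by Fhl2, a LIM-domain cofactor. It stood at 61.3, 45.3, 49.7 and 21.2 against 27.1, 14.7, 13.5 and 9.70 normalised CPM (log2 difference 1.44 ± 0.11, adjusted p = 4.2e-28). Gas7 was higher by 1.21 ± 0.08, Cemip2, a cell surface hyaluronidase, by 1.12 ± 0.10, Pde4a, a cyclic AMP phosphodiesterase, by 0.98 ± 0.09 and Cish, a cytokine-induced inhibitor of signalling, by 0.94 ± 0.09. Ifitm2, an interferon-induced membrane protein, was higher by 1.04 ± 0.04, and in every library, although its level ran from 64.9 in WT 1 to 852 in ACC1 KO 2. Also higher by 0.89 to 0.97 were Isg20, Ifit3b, Acoxl and Glmn. The lower genes were led by Nrgn, at 3.17, 12.3, 30.6 and 16.3 against 31.9, 33.1, 73.4 and 91.9 normalised CPM (log2 difference -1.97 ± 0.30, adjusted p = 0.016), but at -0.34 (adjusted p = 0.51) against unmatched gate cells. Fabp5, a fatty acid carrier, was lower (-0.97 ± 0.13), as was Izumo1r, an iNKT2 marker (-0.76 ± 0.09). Gzma, a granzyme, stood at 148, 612, 429 and 1084 in members against 133, 471, 265 and 773 (0.43 ± 0.04), with the libraries further apart than the cell groups.

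Members were a smaller share of the gate cells in both ACC1 KO libraries. They made up 10.7% of gate cells in WT 1 (95% Clopper-Pearson interval 9.77 to 11.8%, counting error only), 16.5% in WT 2 (15.7 to 17.4%), 3.89% in ACC1 KO 1 (3.35 to 4.49%) and 9.88% in ACC1 KO 2 (9.16 to 10.6%). Both ACC1 KO shares lay below both WT shares. The means were 13.6% ± 4.09 (SD, n = 2) in WT and 6.88% ± 4.24 (SD, n = 2) in ACC1 KO, a difference of -6.75 percentage points. The exact permutation test over libraries gave p = 0.33 (two-sided), the smallest p that 2 libraries against 2 allow. Within a number, the WT share was 2.76 times the ACC1 KO share for number 1 and 1.67 times for number 2.

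Detection of a gene depends on depth, and the number 2 libraries were deeper. With the 5 genes read from 2000 UMIs drawn from each cell, a setting added after the data were seen, the shares were 2.15% (80 of 3724), 2.50% (181 of 7254), 0.653% (30 of 4596) and 1.07% (68 of 6338), which left out 16, 7, 58 and 9 shallower cells. The WT shares again lay above the ACC1 KO shares, and the ratios within a number were 3.29 and 2.33. Cells with none of the 5 genes made up 40.8, 33.4, 57.1 and 41.0% of the gate at full depth. With at least 4 of the 5 genes required, the shares were 2.83, 6.45, 0.838 and 3.04%, and ACC1 KO 2 lay above WT 1 (exact permutation p = 0.67). The same order of shares, without overlap, was seen after marked doublets were removed (10.2, 15.4, 3.57 and 9.19%). With 1 of the 5 genes left out of the rule, the ACC1 KO 2 share came close to that of WT 1: 4.490% against 4.492% without Pmepa1, 6.16 against 6.26% without Cdh1, 5.388 against 5.401% without Skil, 8.27 against 8.34% without Spsb1 and 4.57 against 5.51% without St8sia1, with intervals that overlapped in each case. In this rule a smaller share of cells and less RNA of the 5 genes per cell cannot be told apart.

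**Figure D3:**
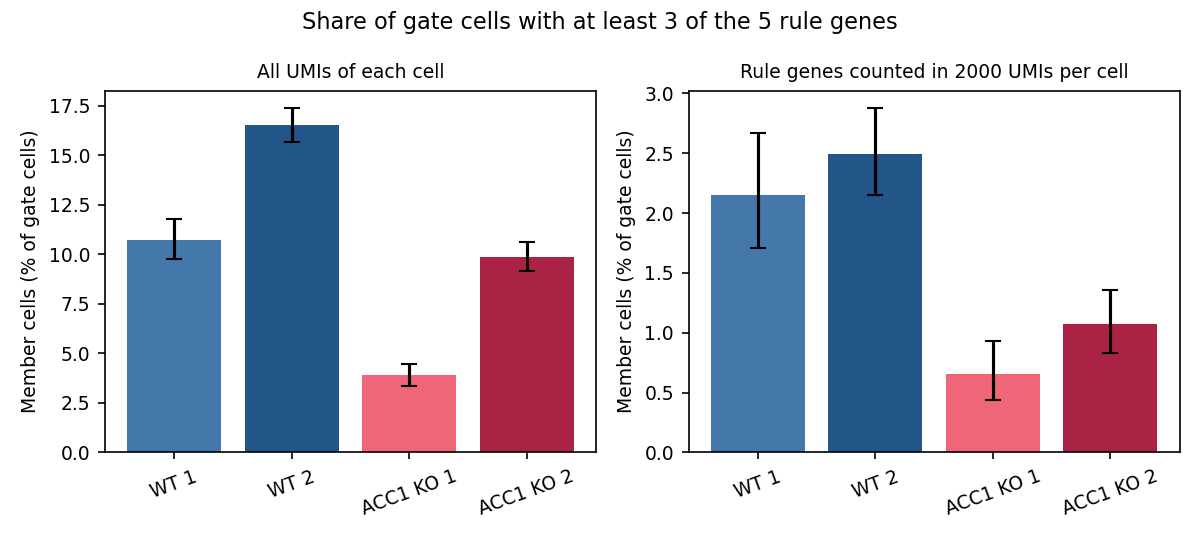
Members as a percentage of gate cells (y axis) in each library (x axis), at full depth on the left and with the 5 genes read from 2000 UMIs per cell on the right. Bars are shares and whiskers 95% Clopper-Pearson intervals, and both ACC1 KO bars are below both WT bars in each panel.

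Cells that the gate leaves out carried the 5 genes too. At least 3 of them were detected in 11.4, 16.8, 2.23 and 9.30% of cells with more than 2 Ly49 genes, shares that also lay lower in the ACC1 KO libraries. Among cells without Nkg7 the shares were 3.10, 6.69, 2.04 and 3.89%. Among mitotic cells they were 14.3, 25.4, 6.25 and 11.4%, the value of WT 1 resting on 3 of 21 cells. Mitotic cells had medians of 12320, 17351, 10856.5 and 16854 UMIs, against 4614, 6129, 4463 and 7173 in all gate cells. Their shares at full depth can therefore not be set against those of the gate.

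Summed over all gate cells, each of the 5 genes stood lower in ACC1 KO libraries, and none passed the test as fitted. The gate does not use the 5 genes, but the same UMIs decide which gate cells are members. These values therefore restate the lower share of members and are not separate evidence for it. This fit over all gate cells was added after the data were seen. Of 13973 genes tested, 2 (0.0143%) were higher and 0 (0%) lower in ACC1 KO, with 350 (2.5%) and 207 (1.48%) at an unadjusted p under 0.05. With the library number as a term, 787 and 524 genes were called, and all 5 genes were among the lower. Both ACC1 KO libraries lay below both WT libraries for 13.6% of all genes. Pmepa1 stood at 93.9, 85.0, 64.4 and 61.6 normalised CPM, a log2 difference of -0.52 ± 0.13 (adjusted p = 0.767). Cdh1 stood at 51.6, 69.5, 18.1 and 33.7 (-1.23 ± 0.32, adjusted p = 0.780). Its difference lay between -1.74 and -0.86 with single libraries left out, and it was called without ACC1 KO 2 (-1.74, adjusted p = 0.017) and by DESeq2 (adjusted p = 0.018). Spsb1 stood at 18.2, 20.4, 8.22 and 9.66 (-1.12 ± 0.16, adjusted p = 0.297), and was called by DESeq2 (adjusted p = 0.0012) and with no filter on low counts (adjusted p = 1.7e-05). For these genes, as for Skil (56.1, 55.7, 41.8 and 39.6), the ACC1 KO values were below both WT values without overlap. St8sia1 stood at 61.4, 81.8, 33.7 and 60.5 (-0.61 ± 0.30), with ACC1 KO 2 just below WT 1, and its difference ran from -1.09 without ACC1 KO 2 to -0.25 without ACC1 KO 1.

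The TGF-beta genes that the rule did not use did not all follow. Tgfbr3 stood at 28.5, 27.8, 11.1 and 17.5 normalised CPM over all gate cells (log2 difference -0.98 ± 0.23), lower without overlap. It did not pass as fitted, passed with no filter on low counts and without ACC1 KO 2 (-1.35), and stood at -0.70 without ACC1 KO 1. Itgae stood at 168, 291, 125 and 266 (-0.24 ± 0.41) and Ldlrad4 at 155, 200, 118 and 171 (-0.31), both with overlap, since number 2 libraries were the higher in either genotype. The difference of Ldlrad4 ran from -0.59 without ACC1 KO 2 to -0.06 without ACC1 KO 1. Smad7 stood at 153, 146, 146 and 145 (-0.05), a range of 145 to 153. The signs of Itgae and Smad7 turned when single libraries were left out, and Itgae gained a call in 1 of 9 alternatives. None of the 14 TGF-beta induced genes tested passed as fitted, and their median log2 difference was 0.05, against -0.00 over all genes. With the library number as a term, Tgfbr3 and Ldlrad4 were called lower. Of 16 residency genes, 8 were lower and 1 higher without overlap, Cxcr6 among the lower (492, 487, 331 and 331), and none passed as fitted. Cxcr6 gained a call in 1 of 9 alternatives.

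**Figure D4:**
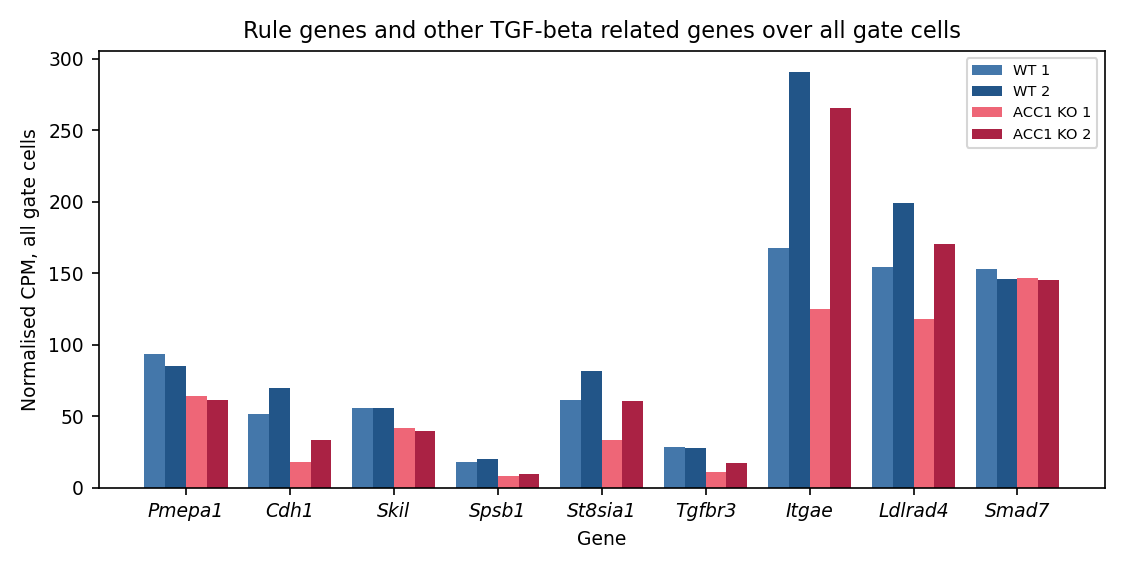
Normalised CPM over all gate cells (y axis) of the 5 genes and of Tgfbr3, Itgae, Ldlrad4 and Smad7 (x axis), 1 bar per library. The bars of Pmepa1, Cdh1, Skil, Spsb1, St8sia1 and Tgfbr3 are lower in both ACC1 KO libraries, Itgae and Ldlrad4 overlap, and Smad7 lies at 145 to 153.

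Within the members, the genotypes differed in desaturase genes. Of 10651 genes tested, 2 (0.0188%) were higher in ACC1 KO and 0 (0%) lower at an adjusted p under 0.05. At an unadjusted p under 0.05 there were 215 (2.02%) and 122 (1.15%), and DESeq2 called 12 and 2. With the library number as a term, 205 and 88 genes were called. With 1 library left out at a time, 9 to 22 genes were called higher and 1 to 5 lower, the lone library being assumed to vary like the pair. Scd2, a stearoyl-CoA desaturase, stood at 47.1, 32.6, 262 and 276 normalised CPM, a log2 difference of 2.78 ± 0.22 (SE, 2 libraries against 2, adjusted p = 0.00683), and 2.46 and 3.06 within the numbers. Scd1, the related desaturase, had 1, 0, 18 and 85 UMIs (adjusted p = 0.0310), and its share of UMIs was 179 times as high in ACC1 KO (95% counting interval 31.4 to 7141). The same 2 genes were called over all gate cells, so they were not found in members alone. On simulated counts at this depth, a 4-fold change was found for 98.5% of genes, a 2-fold change for 55.2% and a 1.5-fold change for 5.97%, beside 17 false calls among the 10651 genes.

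Acaca itself stood at 34.4, 33.4, 46.8 and 67.4 normalised CPM in the members (log2 difference 0.79 ± 0.21, adjusted p = 0.927). Reads come from the 3′ end of transcripts and the deleted piece is not given, so this level checks neither label. Other lipid genes leaned the same way without passing. Of 23 cholesterol synthesis genes 18 were higher without overlap and 0 lower, where 13.1% of all genes were higher and 15.2% lower. Their median log2 difference was 0.75, and 0.66 and 0.71 within the numbers. Srebf1, the factor that drives fatty acid synthesis genes, stood at 16.8, 22.5, 63.5 and 77.2 (1.82 ± 0.21, adjusted p = 0.0635). Of 15 fatty acid synthesis genes 9 were higher without overlap, and of 6 genes of sterol export and its receptor LXR 5 were. Abca1, a cholesterol exporter, stood at 49.5, 36.5, 135 and 125 (1.61 ± 0.20, adjusted p = 0.0694).

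No TGF-beta gene tested within the members passed the test between genotypes as fitted. Tgfbr3 and Bmpr2 each gained a call in 1 of 11 alternatives, and Cdh1 and Spsb1 each in 1 of 12. Of 13 TGF-beta induced genes, 3 were higher and 1 lower without overlap, and of 13 receptors and Smads 2 were higher and 4 lower, where 13.1% of all genes were higher and 15.2% lower. Itgae stood at 273, 445, 208 and 435 normalised CPM (log2 difference -0.15 ± 0.36), Ldlrad4 at 301, 391, 230 and 373 (-0.19 ± 0.24) and Smad7 at 216, 214, 224 and 220 (0.05 ± 0.16). Tgfbr3 stood at 62.3, 48.7, 26.7 and 39.3 (-0.68 ± 0.24, adjusted p = 1.0). Among the 5 genes, which the rule holds up in every member, Cdh1 stood at 176, 171, 92.8 and 116 (-0.72 ± 0.17, adjusted p = 0.626) and Spsb1 at 85.5, 76.6, 68.5 and 52.1 (-0.45 ± 0.20), both lower without overlap, though Spsb1 stood at 0.069 on the log2 scale in cells thinned to 2000 UMIs. Pmepa1 (270, 215, 239 and 190), Skil and St8sia1 overlapped between genotypes. Ahr, a ligand-activated transcription factor of the residency list, stood at 69.1, 35.8, 24.2 and 20.1 (-1.25 ± 0.34). Cd160, an NK receptor, stood at 83.5, 71.7, 45.1 and 31.8 (-1.06 ± 0.22). Neither passed the test as fitted, and each gained a call in 3 of 11 alternatives.

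Some other groups leaned within the members without passing. The counts below stand beside 13.1% of all genes higher and 15.2% lower without overlap. Of 12 glucocorticoid and quiescence genes 7 were higher without overlap and 0 lower, with a median log2 difference of 0.45. Pik3ip1, an inhibitor of PI3 kinase, stood at 31.6, 29.0, 76.9 and 80.9 normalised CPM (1.39 ± 0.18, adjusted p = 0.0709). Of 14 interferon genes 6 were higher and 1 lower, with a median of 0.37, beside the larger share of interferon-rich cells among ACC1 KO members given above. Il23r, a receptor of iNKT17 cells, had 10, 25, 0 and 0 UMIs and Blk 13, 31, 0 and 0, both uncalled. Of 9 survival genes 2 were higher and 0 lower, with Bcl2 at 511, 471, 831 and 647 (0.59 ± 0.21) and Bcl2l11 at 91.1, 54.1, 165 and 71.1 (0.68 ± 0.49). Of 3 T cell receptor gamma constant genes, 2 were lower without overlap and uncalled, Tcrg-C2 at 121, 94.9, 59.3 and 49.7 and Tcrg-C4 at 85.1, 77.7, 44.3 and 52.6 normalised CPM. Tcrg-C1 overlapped, at 68.7, 79.8, 78.6 and 47.1. The gamma-delta markers in members summed to 293, 247, 185 and 142 CPM, while the defining gene Trdc had at most 1 UMI per library, and their part in other values was not tested.

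**Figure D5:**
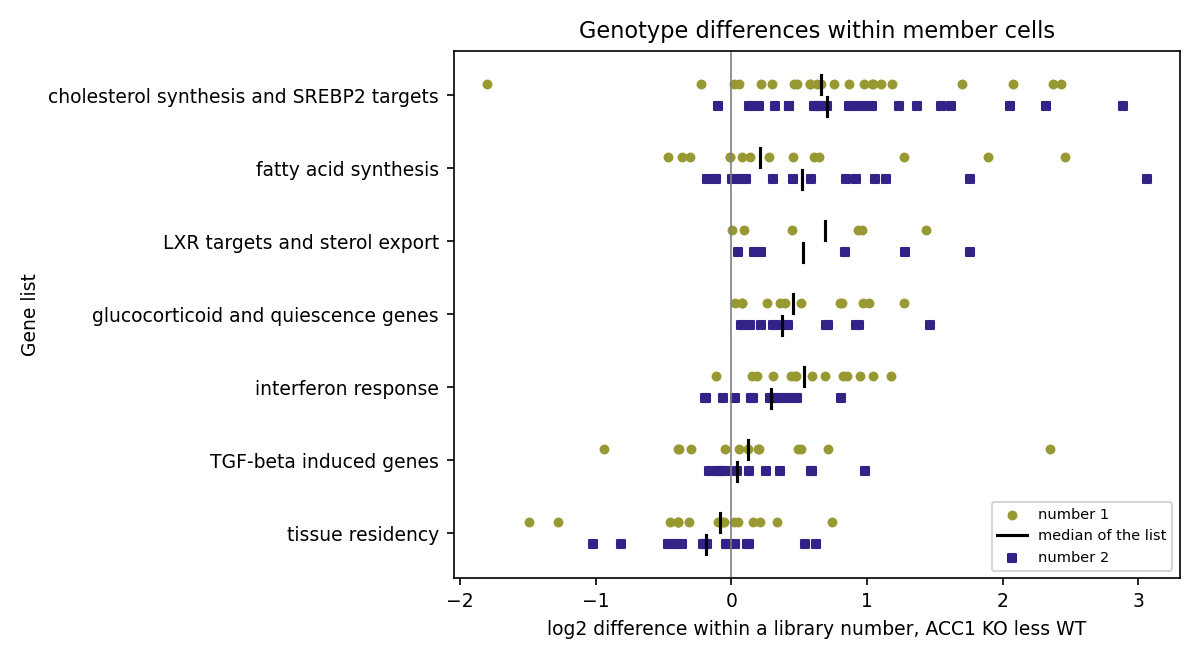
Log2 difference of normalised CPM, ACC1 KO against WT, within number 1 and within number 2 (x axis), for the genes of 7 lists in the members (y axis), with list medians marked. Cholesterol and fatty acid synthesis genes lie mostly right of 0, with medians of 0.66 and 0.71 for cholesterol, while TGF-beta induced genes scatter around 0, and Scd1 is not drawn.

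Whether the genotype difference was another one in members than in matched gate cells was tested as an interaction over 11077 genes. At an adjusted p under 0.05, 3 genes (0.0271%) differed upwards and 1 (0.00903%) downwards, against 2.02% and 1.66% at an unadjusted p under 0.05. Gm4208 differed by 0.61 ± 0.11 on the log2 scale (adjusted p = 0.00224), Ccl5, a chemokine of iNKT1 cells, by 0.23 ± 0.05 (adjusted p = 0.0223) and Itga4, the integrin alpha 4 chain, by -2.62 ± 0.51 (adjusted p = 0.00816). Cd74, a B cell and myeloid gene, was the fourth, with an average of 7.04 CPM, and stood at -0.038 once doublets were removed. Each of the 4 genes lost its call in several alternatives, among them leaving out WT 2.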

How the data were processed

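The deposited files hold raw counts of UMIs per gene and barcode. Per the submitters' processing notes, Cell Ranger 7.0.0 and mm10 were used by the authors. Barcodes were filtered and members chosen as described above. The members and the gene lists were chosen with earlier results of these data known.

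UMIs were summed per library and tested with edgeR 4.0.16 in R 4.3.3 (quasi-likelihood F test, TMM factors, filterByExpr, Benjamini-Hochberg over all genes tested, threshold 0.05). Genotype fits had no covariate, and fits of members against matched cells and of the interaction had the library as a term. Normalised CPM are TMM-scaled, and CPM are counts per M UMIs of a cell group. Doublets were scored against simulated ones, marking 0.8% per 1000 barcodes. On simulated counts the fit of members against matched cells recovered 97.0% of genes changed 1.5-fold, and the interaction 64.2%. Depth per library limits each value: members held 2.35, 9.63, 1.18 and 5.71 M UMIs.

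Named genes are those with the largest called differences per direction (mean of at least 20 CPM, same direction in all 4 libraries or no overlap, and otherwise the largest uncalled ones of at least 50 CPM) and the list members with the smallest p. Genes named for their place on a list or their family beyond this rule were chosen after their values were seen. Alternatives were DESeq2 1.42.0, other filters, a stricter rule, doublets removed, cells thinned to 2000 UMIs, other comparison cells, and each library left out. Some genes that the rule names are left out of the text.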

Additional observations from a re-analysis of the deposited data

Results flagged for a closer look

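The interaction test, which asks whether ACC1 KO and WT differ by another amount in the members than in the matched gate cells, picked out 4 genes. Cd74 differed by 4.37 ± 0.61 on the log2 scale (adjusted p = 4.2e-06). The log2 difference of members from matched cells was -1.79 in WT 1, -4.70 in WT 2, -0.914 in ACC1 KO 1 and -0.503 in ACC1 KO 2. The matched cells of WT 2 held 38.3 normalised CPM of Cd74, against 2.42 to 5.06 in those of the other libraries. Gm4208 differed by 0.61 ± 0.11, with members below the matched cells in WT 1 and WT 2 (-0.953 and -0.497) and level with them in ACC1 KO (0.0248 and 0.0334). Ccl5 differed by 0.23 ± 0.05, with members at -0.0334 and -0.0706 against matched cells in WT and at 0.263 and 0.129 in ACC1 KO. Itga4 differed by -2.62 ± 0.51, with -0.292 and -0.274 in WT and -1.12 and -2.94 in ACC1 KO, and stood at 9.59, 14.9, 2.51 and 0.924 normalised CPM in the members.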

How the results depend on the processing

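The share of members kept its direction under all 16 alternatives, where the difference lay between -10.5 and -1.32 percentage points, and the design cannot reach a p under 0.05.

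Within members, the genes called higher (2) and lower (0) numbered 12 and 2 with DESeq2 and 54 and 7 with no filter on low counts. Higher calls were 1 with a mean of at least 10 CPM, 7 with at least 4 of the 5 genes, 4 without doublets and 0 in cells thinned to 2000 UMIs, and with single libraries left out 9 to 22 (lower 1 to 5). Over all gate cells (2 and 0), DESeq2 called 67 and 18, no filter 117 and 47, a mean of at least 10 CPM 0 higher, and single libraries left out 8 to 30 and 1 to 8. With the replicate block, 205 and 88 genes were called within members and 787 and 524 over all gate cells. With the block, Pmepa1, Cdh1, Skil, Spsb1 and St8sia1 stood at -0.51, -1.25, -0.47, -1.11 and -0.64 over all gate cells, and Tgfbr3 and Ldlrad4 at -0.96 and -0.32, all called lower. Deviations of same-numbered libraries from their group means correlated at 0.768 in members (6048 genes) and 0.911 over all gate cells (5934 genes). The numbers also split depth and sex-linked transcripts the same way in both genotypes. Fits without the block count this difference between numbers as spread between libraries. Still, 2 pairs do not show that the numbers pair the samples.

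Of members against matched cells (1026 higher, 1087 lower), DESeq2 called 371 and 346, at least 4 genes 363 and 229, thinned cells 72 and 78, and no replicate block (no library term) 50 and 7. Unmatched gate cells gave 1726 lower, and single libraries left out 605 to 1020 and 608 to 1082. The interaction (3 and 1) gave 0 and 0 with DESeq2, thinned cells and matched cells with none of the 5 genes, 1 higher with at least 4 genes and with unmatched cells, 0 lower at a mean of 10 CPM and without doublets, and 0 to 5 higher and 0 to 4 lower with single libraries left out.

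Reversed within members were Pmepa1 (0.017 thinned, -0.35 to 0.015 with single libraries left out), St8sia1 (-0.24 to 0.028 with single libraries left out), Skil (0.14 thinned) and Spsb1 (0.069 thinned), and over all gate cells Smad7 (-0.095 to 0.0093 with single libraries left out) and Itgae (-0.87 to 0.20 likewise). Against matched cells Tbx21 reversed (-0.0046 with DESeq2, -0.056 to 0.061 with single libraries left out, -0.012 without a library term), as did Iqgap1 (-0.015 with at least 4 genes) and Ctnnb1 (-0.054 thinned). With unmatched cells, Nav2 (0.23), Zbtb16 (0.080), Slamf6 (0.083), Ccr9 (0.33), Lef1 (0.18) and Id3 (0.057) did. In the interaction, Cd74 stood at -0.038 without doublets. Of other values for named genes, 1456 kept direction and call, 213 lost the call and 146 gained it. Thinning and leaving out libraries leave fewer UMIs, and other causes were not tested.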
